A study of Bos taurus with 4 samples.

Results

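Muscle nuclei with UMIs of UCHL1, NCAM1, NES, ACTC1, MYH15 or MLLT11 were examined in 2 single-nucleus libraries labelled as subcutaneous back fat, 1 from each of 2 cattle. A UMI is a counted RNA molecule. Nuclei were kept with at least 200 detected genes. A kept nucleus was a member when at least 2 of those 6 genes had at least 1 UMI and 6 genes of other cells (PAX7, MYF5, CHODL, PECAM1, PDGFRA and MYH11) had 0 UMIs. There were 185 members among 7009 kept subcutaneous nuclei, and 8849 nuclei were kept in all 4 libraries of the study. The subcutaneous library of animal 1 gave 12 members of 881 nuclei (1.36%, exact 95% interval 0.706 to 2.37), and that of animal 2 gave 173 of 6128 (2.82%, 2.42 to 3.27). The other 2 libraries were labelled intramuscular fat of the same animals. The animals were untreated feedlot cattle of unstated diet, age and breed, and no experimental group differed by treatment.

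A skeletal muscle fibre is 1 long cell with many nuclei, and nuclei at the nerve contact, at the tendon end and along the rest of the fibre use different genes. NCAM1, a cell adhesion molecule, is carried over the whole surface of fibres that are regenerating or have lost their nerve, while in innervated adult fibres it is concentrated at the nerve contact. NES encodes nestin, an intermediate filament protein of developing muscle that in adult fibres is found at the nerve contact and the tendon end. ACTC1 is the cardiac actin that developing skeletal muscle also uses, MYH15 is a slow-tonic type myosin heavy chain of eye muscle and muscle spindle fibres, and UCHL1 is a deubiquitinating enzyme known chiefly from neurons. Regenerating fibres are further known for embryonic and perinatal myosins (MYH3, MYH8) and MYOG, and denervated fibres for acetylcholine receptor subunits and RUNX1.

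The members held 14953 UMIs in animal 1 and 166910 in animal 2, and 1 nucleus gave 35.8% of those of animal 1. Median UMIs per nucleus were 737.5 and 710 in members of animals 1 and 2, against 847 and 515 in the other kept nuclei of the same libraries. Members were thus deeper than the rest in animal 2 and shallower in animal 1. Mitochondrially encoded genes took 2.03% and 1.58% of member UMIs, against 1.29% and 1.66% of those of the other kept nuclei. The 2 subcutaneous libraries shared 1 barcode, which was not a member. Muscle RNA was widespread in the library of animal 2, whose label names fat, and 5252 of its 6128 kept nuclei met a fibre rule of at least 1 UMI in at least 2 of NEB, RYR1, CACNA1S, LDB3, CMYA5 and MYBPC1 with the same 6 genes at 0. That rule was met by 11 and 171 members, and by 282 and 5081 other nuclei, called other fibre nuclei below.

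Values were also read in nuclei with at least 2 UMIs of PECAM1, PDGFRA or MYH11, which mark endothelium, fibroblast progenitors and smooth muscle. NEB, the giant thin-filament protein of muscle, had a UMI in 83.3% of members and 36.7% of these nuclei in animal 1, and in 99.4% of members and 94.6% of these nuclei in animal 2. In animal 2 the NEB level was nevertheless 22641 CPM (UMIs of the gene scaled to 1000000 UMIs of the set) in members, against 9424 CPM in these nuclei. At least 2 of the 6 markers were found in 3 of these 177 nuclei of animal 1 (1.69%) and in 10 of 223 of animal 2 (4.48%), at median depths of 1162 and 679 UMIs. Before the 6 exclusions, the same was true of 1.93% and 3.21% of all kept nuclei, so co-detection of 2 markers was also found in nuclei that should lack a fibre program. Whether free RNA or doublets gave these UMIs, or part of the members, was not tested. ACTC1 had no UMI in these nuclei of either animal, and MYH15 had none in animal 2.

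NES and UCHL1 made most of the members, which is how the nuclei were chosen and not a result. NES had a UMI in 11 of 12 members of animal 1 and in 142 of 173 of animal 2, against 7.34% and 9.42% of the nuclei with PECAM1, PDGFRA or MYH11. UCHL1 was seen in 6 and 112 members, NCAM1 in 6 and 40, MLLT11 in 3 and 75, and MYH15 in 3 and 31. ACTC1 was seen in 0 members of animal 1, where 3 counts correspond to 201 CPM, and in 26 of animal 2. Its 116 UMIs in animal 2 were uneven, and 1 member held 55 of them. Most members had the least the rule allows: 9 and 115 had exactly 2 markers, 1 and 40 had 3, 2 and 14 had 4, 0 and 4 had 5, and none had all 6. The most frequent pair in animal 2 was UCHL1 with NES, in 86 members.

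Each marker was also read in nuclei chosen by the other 5 markers, so that its own UMIs did not choose them. The 6 markers were picked together with earlier results of these data known, so these levels are a description and not a test. The remaining kept nuclei include other cell types and nuclei with UMIs of the 6 excluded genes. In animal 2, MLLT11 was at 590 CPM (exact Poisson 95% interval 472 to 729) in nuclei chosen without it, against 25.4 CPM (20.6 to 30.9) in the remaining kept nuclei. ACTC1 was at 511 CPM (404 to 639) in nuclei chosen without it, against 23.1 CPM (18.5 to 28.4), although only 8 of 155 nuclei had a UMI. The ratio in animal 2 was 23.3 for MLLT11, 22.2 for ACTC1, 14.7 for MYH15, 14.0 for UCHL1, 10.6 for NES and 10.4 for NCAM1. All 6 markers were thus higher where the other 5 chose the nuclei, with intervals that did not overlap. In animal 1, where 4 to 12 nuclei were chosen, NCAM1 was at 382 CPM (124 to 891), against 46.9 CPM (35.1 to 61.3), and NES at 944 CPM (257 to 2418), against 118 CPM (98.6 to 139). MYH15 had 3 UMIs in those nuclei of animal 1, against 2 UMIs in all others. UCHL1 in animal 1 rested on 1 UMI and its intervals overlapped, and ACTC1 had none. Intervals cover counting error only, and depth was not matched here.

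**Figure D1:**
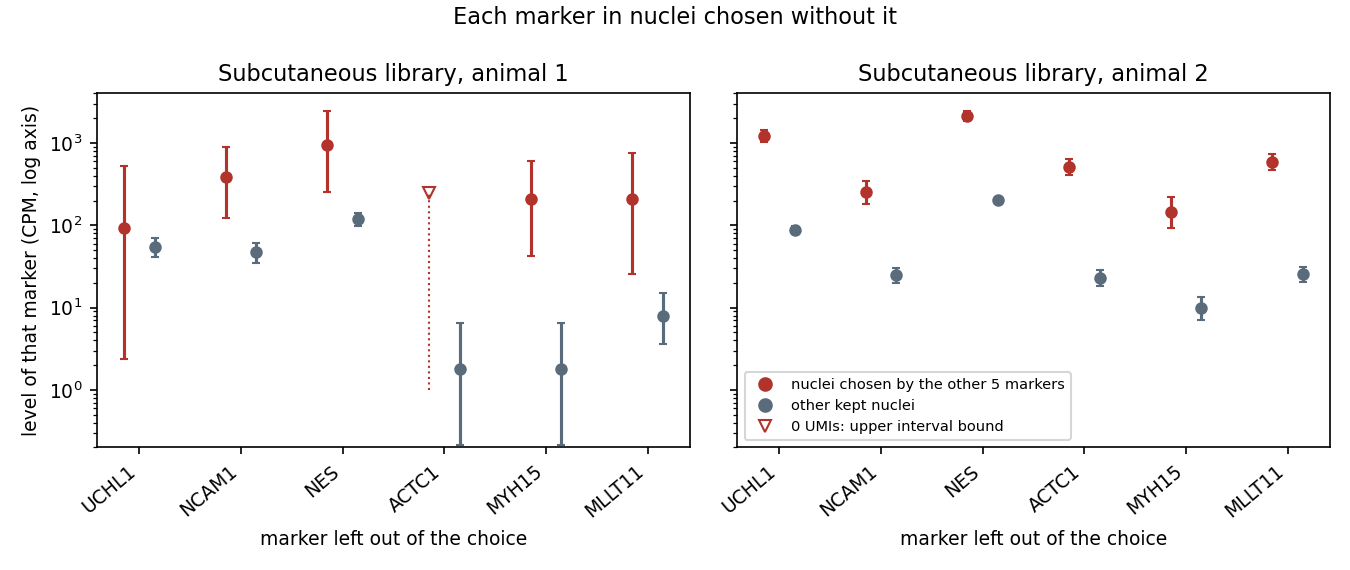
Level of each marker (CPM, log axis) in nuclei chosen by the other 5 markers (red) and in the remaining kept nuclei of the same library (grey), with exact Poisson 95% intervals; an open triangle is the upper bound where no UMI was found. In animal 2 all 6 red points lie above their grey points without overlap, while in animal 1 UCHL1 overlaps and ACTC1 has no UMI.

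Against all other kept nuclei, which include vessel, progenitor and fat cell nuclei, MAP3K7CL rose in the members and NOVA1, a splicing regulator, fell. Sums per library and set were compared with edgeR's quasi-likelihood test with the library as a block and Benjamini-Hochberg adjustment, over 6660 genes without the 12 genes of the rule. MAP3K7CL was at 66.9 and 114 CPM in members of animals 1 and 2, against 4.43 and 10.7 CPM in the other kept nuclei. Its log2 fold change was 3.33 (SE 0.75, adjusted p = 0.0328 by edgeR), but it rested on 1 and 19 member UMIs. The ratio in animal 1 was 15.1 with a counting interval of 0.319 to 135. NOVA1 was at 66.9 and 41.9 CPM in members, against 1455 and 263 CPM in the others, with a log2 fold change of -3.43 (SE 0.77, adjusted p = 0.0328 by edgeR). Member values of NOVA1 rested on 1 and 7 UMIs, and the ratio in animal 1 was 0.046 (counting interval 0.00116 to 0.256). Together they were 0.03% of the genes tested, or 0.015% in each direction. MAP3K7CL passed in 8 of 16 alternatives and NOVA1 in 9 of 17, with adjusted p from 0.00053 to 1.00 and from 0.000958 to 1.00. MAP3K7CL met the gene filter only through the members, where it was high, so its direction was fixed by that filter. MAP3K7CL was not called with no gene filter.

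The next smallest p-values of that comparison belonged to genes that did not pass. LAMA2, a laminin chain of the muscle basement membrane, was at 869 and 156 CPM in members, against 40.8 and 53.4 CPM in the others (adjusted p = 0.0837 by edgeR). AMACR, an enzyme of branched-chain fatty acid breakdown, was at 201 and 95.9 CPM, against 27.5 and 12.5 CPM. IGFBP3, a carrier of insulin-like growth factors, was at 66.9 and 47.9 CPM in members, against 1337 and 251 CPM. FLNA, an actin crosslinker of non-muscle and smooth muscle cells, was at 66.9 and 65.9 CPM, against 859 and 385 CPM. The higher genes were above the other kept nuclei in both libraries, and the lower ones were below in both, as were 18.9% and 36.8% of all genes tested. The median log2 fold change over all genes was -0.31, and -0.18 with DESeq2's size factors, so a value near 0 here lies above the middle of the genes. With 17 alternative settings the count was 0 to 11 genes higher and 0 to 19 lower. The fit has 1 residual degree of freedom, so its p-values lean on the spread shared across genes.

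Against other fibre nuclei, PLS1 rose in the members, and PLS1 encodes an actin-bundling plastin. It was at 139 and 66.2 CPM in members of animals 1 and 2, against 6.35 and 5.43 CPM in other fibre nuclei. The log2 fold change was 3.57 (SE 0.32, adjusted p = 0.0343 by edgeR), from 2 and 11 member UMIs against 2 and 17. The ratio was 21.9 (counting interval 1.59 to 302) in animal 1 and 12.2 (5.16 to 27.6) in animal 2. PLS1 passed in 7 of the 12 alternatives that tested it, with adjusted p from 0.000162 to 1.00. PLS1 overlaps other annotated genes, and UMIs of overlapping genes may be counted for either. PLS1 was the only gene called higher among 3583 tested (0.0279%). By edgeR or by DESeq2 0 were called lower, and 218 genes had an unadjusted p under 0.05. The gene filter asks that a gene reach a CPM cut in 2 sums, and PLS1 did so only in the members, where it was high. Its being higher in both libraries was thus fixed by the filter. With no gene filter PLS1 was not called. Left without the deepest member of each library, the same test called 20 genes higher, PLS1 among them, and 2 lower, and over 17 alternatives the counts ranged from 0 to 26 higher and 0 to 21 lower.

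CRYAB, the small heat shock protein alpha-B-crystallin that binds desmin filaments, showed a large difference from other fibre nuclei that did not pass. It was at 10714 and 19744 CPM in members of animals 1 and 2, against 2192 and 4840 CPM in other fibre nuclei. The log2 fold change was 1.91 (SE 0.25, adjusted p = 0.0777 by edgeR). The test passed the threshold in 5 of 17 alternatives, with adjusted p from 0.0145 to 1.00, among them the fit of nuclei thinned to 500 UMIs and the fit without the deepest member of each library. CRYAB had a UMI in 165 of 173 members of animal 2, with a median of 10 and at most 171 UMIs a nucleus. In animal 1 it was seen in 8 of 12 members, and 1 nucleus held 62.3% of the UMIs. Without that nucleus the level in members of animal 1 was 6044 CPM. In nuclei with PECAM1, PDGFRA or MYH11 the level was 372 and 2087 CPM, with a UMI in 24.3% and 77.1% of them. When the subcutaneous nuclei were clustered, CRYAB was also among the leading genes of a cluster of which 4.67% were members.

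XIRP2 and HSPB7 were named after values were seen or from a gene list, not by the rule for naming genes given below. XIRP2, an actin-binding protein of Z-discs and fibre ends, was at 9740 and 7045 CPM in members, against 2625 and 1854 CPM in other fibre nuclei. Its log2 fold change was 1.66 (SE 0.27, adjusted p = 0.143 by edgeR). It passed in 3 of 17 alternatives, with adjusted p from 0.00737 to 1.00. It was spread over members, with a UMI in 10 of 12 and 145 of 173. HSPB7, a small heat shock protein of the sarcomere, was at 696 and 812 CPM in members, against 254 and 153 CPM. HSPB1, its relative, was at 6609 and 9662 CPM, against 2777 and 5269 CPM, and its fitted direction turned with some settings. In animal 1, 1 nucleus held 63.6% of the HSPB1 UMIs of members, and the level without it was 3752 CPM. HSPB7 and HSPB1 passed in none of 17 alternatives. In the test itself none of the 3 passed, while all 3 were higher in both libraries, as were 29.1% of genes tested.

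MAP3K7CL, C15H11orf52, CDKN1A, AMACR, LRRN1, NPNT and STRIP2 were also higher in both libraries, with adjusted p from 0.0666 to 0.155 by edgeR, and those after C15H11orf52 were chosen after their values were seen. CDKN1A, an inhibitor of the cell cycle that also responds to muscle denervation, was at 278 and 84.2 CPM in members, against 28.6 and 10.9 CPM in other fibre nuclei. It rested on 4 and 14 UMIs. AMACR was at 209 and 96.3 CPM in members, against 28.6 and 12.4 CPM. C15H11orf52 is a near neighbour of CRYAB in the cattle gene table and had 1 and 9 UMIs in members. All 7 genes had 4 or fewer UMIs in members of animal 1 and met the gene filter only through the members, which fixed their direction. On the lower side, SLC1A3, a glutamate transporter, had 0 and 1 UMIs in members, against 91 and 239 in other fibre nuclei. FABP4, the fatty acid carrier of fat and vessel cells, was at 348 and 54.1 CPM in members, against 2237 and 139 CPM. SPP1 had 0 UMIs in members of either animal, against 127 and 58.4 CPM, which makes it at least 3.24-fold lower in animal 2, with 3 counts taken as the floor. In animal 1 the counting interval of the SPP1 ratio was 0 to 2.12, which includes no change. SLC1A3, FABP4 and SPP1 did not pass (adjusted p = 0.367, 0.368 and 0.449 by edgeR).

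**Figure D2:**
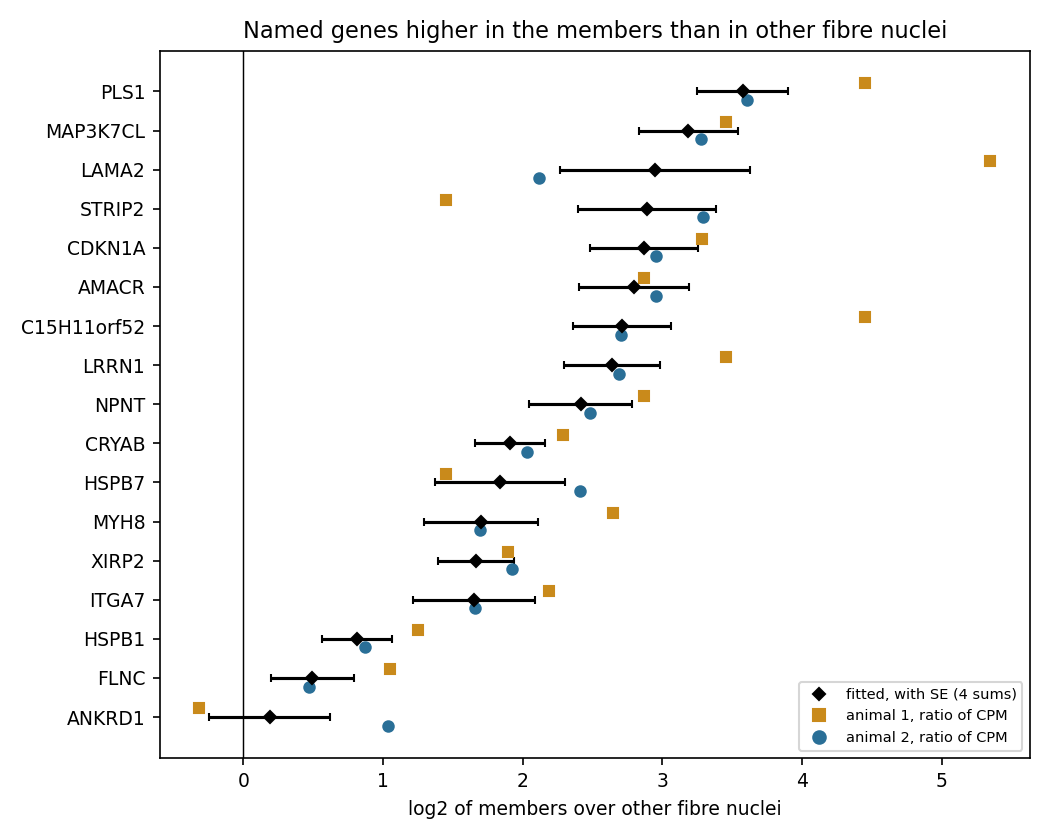
Log2 of members over other fibre nuclei for the named genes that were higher: the fitted value with its SE (diamond, from 4 sums) and the ratio of CPM in animal 1 (square) and animal 2 (circle). PLS1 lies highest at 3.57 and alone passed the test. ANKRD1, at the bottom, has its 2 animals on opposite sides of 0.

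The number of markers in a nucleus and the level of these genes went together in animal 2. CRYAB was at 4611 CPM in nuclei with 0 markers, 5907 with 1, 12014 with 2, 25653 with 3, 34190 with 4 and 32784 with 5, all with the 6 excluded genes at 0. The nuclei just outside the rule are the 725 with 1 marker, and those just inside are the 115 with 2. Median depth also grew along this series, with 497 UMIs at 0 markers and 2529 at 5. Within nuclei of 500 to 1000 UMIs the order held: CRYAB was at 4547, 5557, 13224 and 22508 CPM with 0, 1, 2 and at least 3 markers, over 1822, 317, 55 and 23 nuclei. XIRP2 in that band was at 1769, 3016, 8735 and 9468 CPM. In animal 1 the band gave CRYAB at 1037, 1810 and 4989 CPM with 0, 1 and 2 markers, from 232, 28 and 5 nuclei, and 0 UMIs in the 1 nucleus with more. These groups were not limited to fibre nuclei, and only 293 of 881 kept nuclei of animal 1 met the fibre rule. The part of the mix of nucleus types in these orders was not tested. The 2 members of animal 1 with 4 markers had CRYAB at 581 CPM and XIRP2 at 12195 CPM, so they were low for CRYAB and high for XIRP2.

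**Figure D3:**
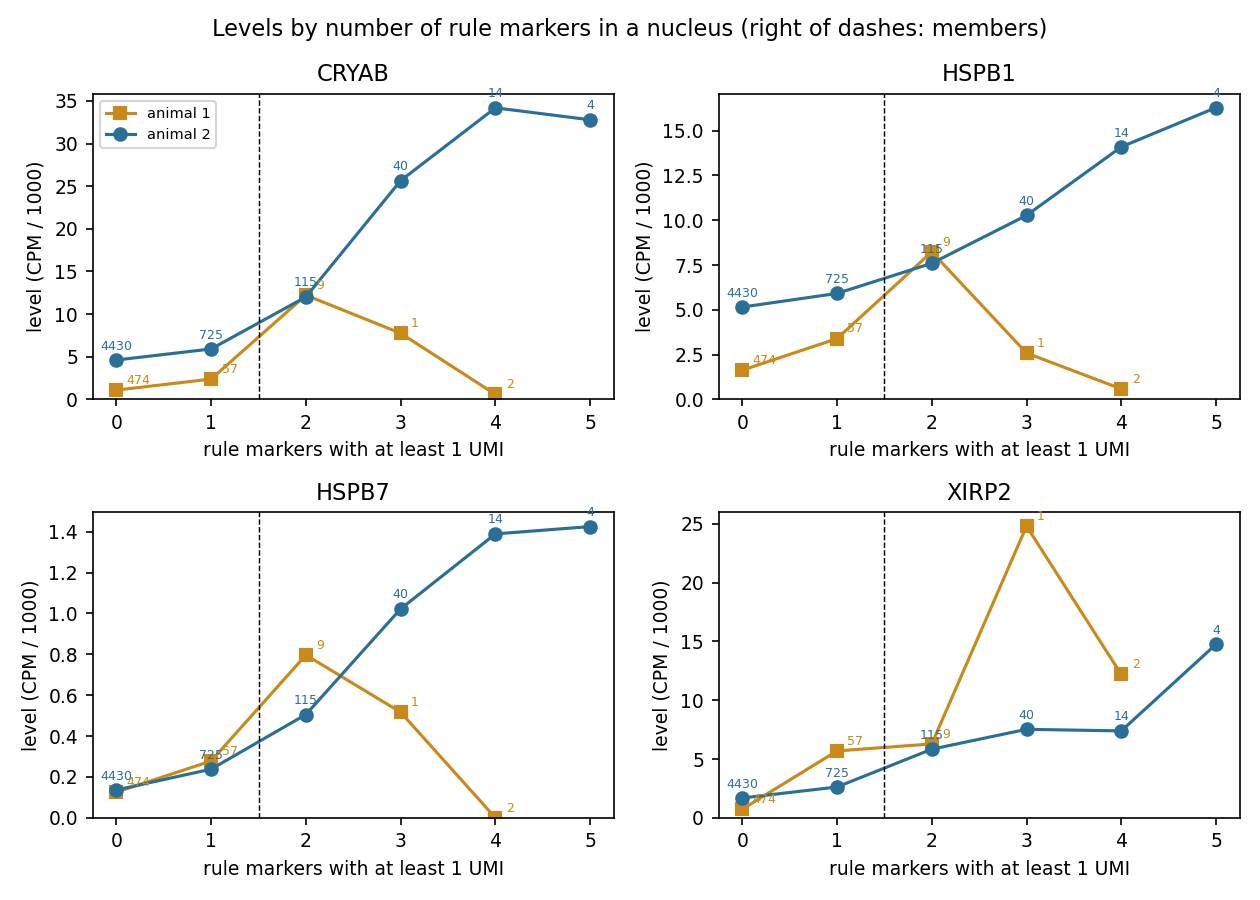
Level (CPM divided by 1000) of CRYAB, HSPB1, HSPB7 and XIRP2 in nuclei grouped by how many of the 6 markers had a UMI, with the number of nuclei beside each point; nuclei right of the dashed line are members. In animal 2 (circles) CRYAB is at 4611 CPM with 0 markers and 34190 with 4, and the points of animal 1 (squares) at 3 and 4 markers stand for 1 and 2 nuclei.

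Members also differed by which marker they had. In animal 2, XIRP2 was at 11345 CPM in the 40 members with NCAM1 and at 12636 CPM in the 31 with MYH15, against 6590 CPM in the 142 with NES. These sets overlap, since a member has at least 2 markers. MYH7, the slow myosin, was at 14014 CPM in members with MYH15, against 7485 CPM in those with NES. In animal 1 the order was the other way, with 15195 CPM in the 3 members with MYH15, against 22402 CPM in the 11 with NES. LAMA2 in animal 2 was at 459 CPM in members with NCAM1, against 126 CPM in those with NES, and in animal 1 at 1815 CPM, against 904 CPM. CSRP3, a Z-disc protein, was at 2211 CPM in members of animal 2 with ACTC1, against 762 CPM in those with NES. No member of animal 1 had ACTC1. In animal 1, XIRP2 was at 15787 CPM in the 6 members with NCAM1, against 9740 CPM in the 11 with NES.

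The next question was whether members looked like regenerating fibre nuclei, and most of the genes known for that state did not pass the gene filter. Of 15 listed genes 4 passed the filter and were tested against other fibre nuclei, and 0 were called (1 at an unadjusted p under 0.05). The median log2 fold change was 0.94, against -0.09 over all genes. The summed level of the list was 8975 and 1654 CPM in members, against 2399 and 1192 CPM in other fibre nuclei. Of its 129 and 275 UMIs in members, CSRP3 gave 122 and 125 and IGF2 gave 3 and 100. The sum thus mostly followed these 2 genes. Without the deepest member the summed level was 3231 CPM in animal 1. MYH3, the embryonic myosin, had 0 and 11 UMIs in members, against 8 and 27 in other fibre nuclei, and 1 member held 7 of the 11. MYH8, the perinatal myosin, was at 139 and 66.2 CPM in members, against 22.2 and 20.4 CPM (log2 fold change 1.70, SE 0.41, adjusted p = 0.40 by edgeR). Its 2 and 11 UMIs lay in 2 and 10 members. MYH8 met the gene filter only through the members, so its being higher in both libraries was fixed by that filter. MYOG, a driver of muscle differentiation, had 0 and 7 UMIs in members, which is 42.1 CPM in animal 2, against 38.1 and 41.2 CPM in other fibre nuclei. MYOD1 had 0 and 1 UMIs, against 4 and 104 in other fibre nuclei. IGF2, a growth factor, was at 209 and 602 CPM, against 178 and 187 CPM. CSRP3 was at 8488 and 752 CPM, against 1932 and 798 CPM, and 1 nucleus held 81.1% of its UMIs in members of animal 1. XIRP1 had 0 and 17 UMIs in members, against 46 and 272 in other fibre nuclei. Cell cycle genes (MKI67, TOP2A, CENPF, CCNB1 and CDK1) had 0 UMIs in all members.

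Most denervation genes likewise did not pass the gene filter. Of 15 listed genes 5 were tested, 0 were called (1 at an unadjusted p under 0.05), and the median log2 fold change was 0.19. CHRNA1, the alpha subunit of the acetylcholine receptor, had 0 and 4 UMIs in members that met the fibre rule, which is 24.1 CPM in animal 2, against 44.5 and 23.0 CPM in other fibre nuclei. CHRND had 0 UMIs in members of both animals, against 1 and 3 in other fibre nuclei. CHRNG, the fetal subunit that returns on denervation, had 0 and 1, against 2 and 13. RUNX1, known to rise in denervated muscle of rodents, had 0 UMIs in members, against 0 and 7. In members, 3 counts correspond to 209 and 18.0 CPM, so absence of genes this sparse cannot be read from 0 UMIs. FBXO32 and TRIM63 are ubiquitin ligases of muscle atrophy. FBXO32 was at 487 and 523 CPM, against 683 and 768 CPM, and TRIM63 was at 417 and 168 CPM, against 213 and 242 CPM. ANKRD1, a stretch-responsive Z-disc protein, was at 2365 and 4386 CPM, against 2939 and 2141 CPM, so the animals went opposite ways. CDKN1A was the 1 tested gene of the list that was higher in both libraries, and 1 was lower in both, beside 29.1% and 26.6% of all genes tested. CDKN1A met the gene filter only through the members, so its being higher in both was fixed by that filter. KCNN3, which did not pass the gene filter, had 1 and 3 UMIs in members and was at 69.6 and 18.0 CPM, against 12.7 and 16.0 CPM. The summed level of the list was 3618 and 5360 CPM, against 4054 and 3309 CPM, so the animals went opposite ways. ANKRD1 gave 34 of the 52 UMIs of the list in members of animal 1 and 729 of 891 in animal 2. The sum thus mostly followed ANKRD1.

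For the nerve contact, 6 of 18 listed genes were tested and 0 were called (0 at an unadjusted p under 0.05). Of the 6, 1 was higher and 3 were lower in both libraries, beside 29.1% and 26.6% of all genes tested. The median log2 fold change was -0.25. The summed level of the list was 974 and 860 CPM in members, against 1713 and 852 CPM in other fibre nuclei. CHRNE, the adult receptor subunit used by nuclei under the nerve ending, had 0 and 5 UMIs, which is 30.1 CPM in animal 2, against 38.1 and 46.3 CPM. MUSK, the receptor kinase of the synapse, had 0 and 7 UMIs in members, from 5 nuclei, against 2 and 11 in other fibre nuclei. The counting interval of its ratio in animal 2 was 3.94 to 33.9, while MUSK did not pass the gene filter and was not tested. CHRNB1 had 0 and 1 UMIs, against 5 and 72, and RAPSN, which anchors the receptor, had 1 and 10, against 24 and 283. UTRN was at 348 and 187 CPM, against 493 and 115 CPM, and ANK3 at 139 and 156 CPM, against 327 and 265 CPM. LAMB2, a synaptic laminin chain, was at 348 and 229 CPM, against 337 and 112 CPM.

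For the tendon end, all 9 listed genes that were among the feature names were tested, and 0 were called (3 at an unadjusted p under 0.05). ITGA7, ADAMTS20, LAMA2, THBS4 and TLN2 were higher in both libraries and 1 gene was lower in both, beside 29.1% and 26.6% of all genes tested. LAMA2 met the gene filter only through the members, so its being higher in both was fixed by that filter. The median log2 fold change was 0.37. ADAMTS20, THBS4 and TLN2 rested on 3, 2 and 3 UMIs in members of animal 1. TLN2 in animal 2 was at 114 CPM, against 111 CPM. Tenocyte markers, of the tendon cells themselves, were at 0 and 60.2 CPM in members, with 0 and 2 of 5 genes detected, against 12.7 and 21.1 CPM, and FMOD gave 54.1 CPM of the level in members of animal 2, against 12.1 CPM. Their part in the result was not tested. COL22A1, the collagen that best marks tendon-end nuclei, was not analysed here. The summed level was 2365 and 1859 CPM in members, against 1166 and 1005 CPM in other fibre nuclei. ITGA7, the laminin-binding integrin of fibres, was at 696 and 379 CPM in members, against 153 and 120 CPM (log2 fold change 1.65, SE 0.44, adjusted p = 0.51 by edgeR), and it overlaps another gene. LAMA2 was at 904 and 156 CPM, against 22.2 and 36.1 CPM (log2 fold change 2.95, SE 0.68, adjusted p = 0.37 by edgeR), from 4 and 18 members. LAMA2 passed in 6 of 17 alternatives and ITGA7 in 1 of 17, with adjusted p from 2.57e-06 to 1.00 and from 0.0145 to 1.00. VCL was at 139 and 229 CPM, against 172 and 253 CPM, ITGB1 at 0 and 487 CPM, against 276 and 195 CPM, and TLN1 at 69.6 and 193 CPM, against 248 and 122 CPM. Muscle spindle and tonic genes were sparse. MYH6 had 0 UMIs in members, against 19 and 32 in other fibre nuclei, and EGR3 had 0, against 0 and 4. MYH7B was at 69.6 and 48.1 CPM, against 73.1 and 41.2 CPM.

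**Figure D4:**
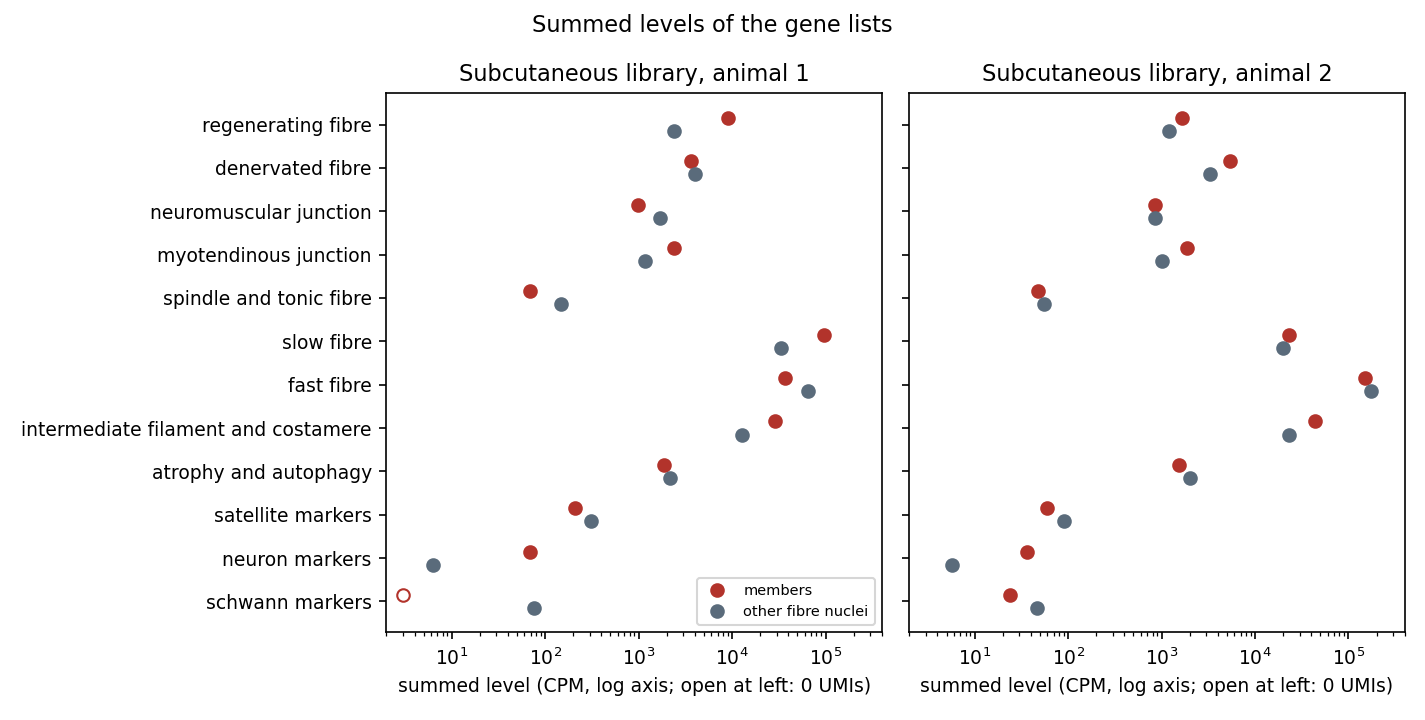
Summed level of 12 gene lists (CPM, log axis) in members that met the fibre rule (red) and in other fibre nuclei (grey) of each subcutaneous library; an open point at the left edge has 0 UMIs. The myotendinous junction list is at 2365 and 1859 CPM in members, against 1166 and 1005 CPM, while the neuromuscular junction list is at 974 and 860 CPM, against 1713 and 852 CPM.

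Filament and costamere genes, which tie the sarcomere to the membrane, were higher in both libraries for 7 of 11, among them SYNC, HSPB7, DES, FLNC, CRYAB and HSPB1, beside 29.1% of all genes tested, with a median log2 fold change of 0.49 and 0 called by edgeR (3 at an unadjusted p under 0.05). Their summed level was 28524 and 44103 CPM in members, against 12777 and 22904 CPM in other fibre nuclei. DES, desmin, was at 7166 and 10492 CPM, against 4217 and 9848 CPM. FLNC was at 1809 and 1841 CPM, against 874 and 1330 CPM, and its fitted sign turned in 2 alternatives.

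Slow fibre genes were higher in both libraries for 9 of 11, with a median log2 fold change of 0.61, and fast fibre genes lower in both for 9 of 12 tested, with a median of -0.70, and 0 of either list were called (2 and 5 at an unadjusted p under 0.05). Of all genes tested, 29.1% were higher and 26.6% lower in both libraries. MYH7 was at 22402 and 7009 CPM in members, against 8614 and 5402 CPM in other fibre nuclei. In animal 1 this leaned on 1 nucleus with 73.9% of the MYH7 UMIs, and without it the 11 other members were at 8754 CPM. MYH2, the fast oxidative myosin, was at 9879 and 13638 CPM, against 14626 and 9651 CPM, and MYH1, the faster glycolytic type, at 278 and 16797 CPM, against 566 and 22952 CPM. MYH1 was thus lower in members of both animals, and MYH2 went opposite ways. TNNC2 and MYLPF, of the fast fibre apparatus, were at 8279 and 5844 CPM in members of animal 1, against 13444 and 13161 CPM. In animal 2 they were at 36806 and 30874 CPM, against 38263 and 36550 CPM.

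**Figure D5:**
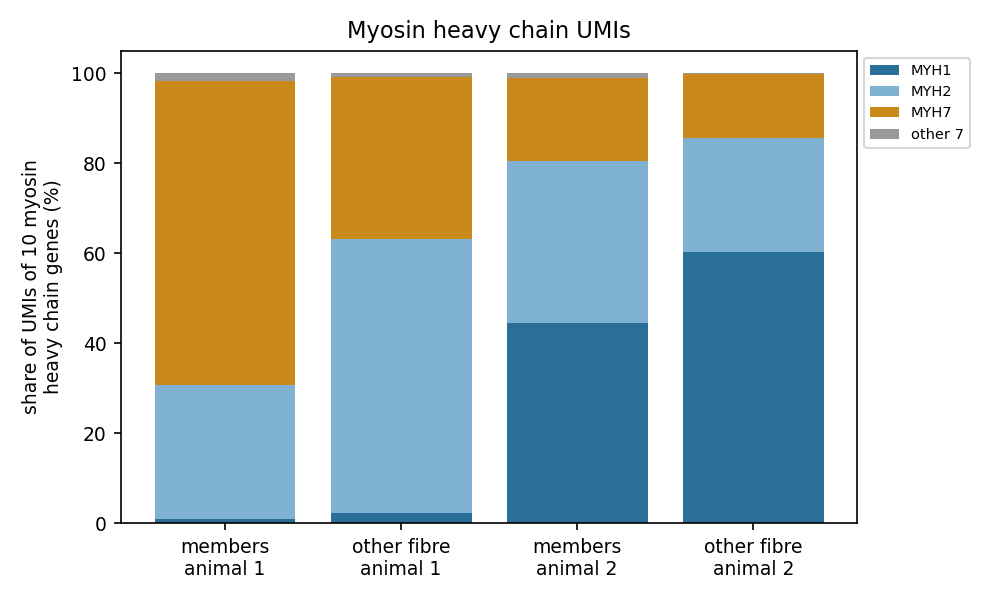
Share of the UMIs of 10 myosin heavy chain genes (percent, bars stacked from 0) in members that met the fibre rule and in other fibre nuclei of each animal, for MYH1, MYH2, MYH7 and the other 7 genes. MYH7 takes 67.6% and 18.5% of these UMIs in members of animals 1 and 2, against 35.8% and 14.2% in other fibre nuclei; the bar of members of animal 1 stands for 476 UMIs.

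Markers of other cells were read in the same sets. Neuron markers summed to 69.6 and 36.1 CPM in members, against 6.35 and 5.74 CPM in other fibre nuclei, and so were higher in both animals. They had 1 and 6 UMIs in members, from 1 of 10 genes in each animal; the 6 were of NEFM, a neurofilament, with 3 in 1 nucleus. Without the deepest member of each library the list had 0 and 3 UMIs. Schwann cell markers were at 0 and 24.1 CPM, with 0 and 2 of 9 genes detected, against 76.3 and 46.9 CPM. Satellite cell markers outside the rule summed to 209 and 60.2 CPM, against 308 and 91.3 CPM in other fibre nuclei. Blood endothelial markers were at 278 and 162 CPM, against 327 and 208 CPM, and adipocyte markers at 765 and 271 CPM, against 3362 and 265 CPM. Fibroblast and progenitor markers were at 1322 and 698 CPM, against 5503 and 724 CPM. Macrophage markers were at 626 and 48.1 CPM, against 286 and 47.6 CPM, with 4 of 8 genes detected in either animal. Lymphocyte markers had 0 UMIs in members, against 13 in other fibre nuclei of each animal. Immediate early genes, which can mark handling of tissue, were at 1183 and 1035 CPM, against 3667 and 1253 CPM, and 5 of 7 tested were lower in both libraries, beside 26.6% of all genes tested. The part of these differences in the results above was not tested.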

How the data were processed

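Nuclei were released by Dounce homogenisation and made into 10x Genomics 3' libraries of chemistry 3.1, per the labels' protocols. The authors deposited 1 matrix of unnormalised UMI counts per library, made with Cell Ranger 6.0.1, per the file headers, on build ARS-UCD1.2, per the submitters' processing notes. Which annotation was used, and whether introns were counted, is not given in the sources used here. For names and overlaps only, the gene table of ARS-UCD2.0 was used.

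The members and the 29 gene lists were chosen with earlier results of these data known. UMIs were summed per library and set, and each animal gave 1 library, so nuclei were not replicates. Members were compared with edgeR 4.0.16 in R 4.3.3 (filterByExpr, TMM, quasi-likelihood F test, library as block) on 4 sums, with Benjamini-Hochberg adjustment and a threshold of 0.05. The block is the animal that both sums came from. Genes of the member rule, and in the fibre comparison those of the fibre rule, were not tested. The gene filter asks for a CPM cut in 2 sums, so a gene low in other nuclei could enter through the members alone. Against other fibre nuclei, LAMA2, MYH8 and CDKN1A were among those that did, so their being higher in both libraries was fixed by the filter. The SE is the fold change over the root of the F statistic. The fibre rule used 6 genes of the 8 first listed for it. COL22A1 and HBA1 of the lists were not used here, and some other results are not reported here.

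Named genes were up to 10 per direction with the largest change at an adjusted p below the threshold that had 50 CPM or more and went alike in both libraries, or else the 3 smallest p-values, with listed genes beside them. The 3 most abundant genes of each list and a set of receptor and myosin genes were also named where they bear on the question. Against other fibre nuclei, XIRP2, HSPB7, FLNC, ITGA7 and LAMA2 met none of these rules and were named after values were seen or from a list. On simulated counts, 8-fold higher genes were recovered in 24 of 50 cases against all other kept nuclei and in 50 of 50 against other fibre nuclei, and 4-fold higher ones in 4 and 38 of 50. Lower genes were recovered less often, 8-fold lower ones in 5 and 30 of 50 and 4-fold lower ones in 2 and 12. The simulation used pooled means with no difference between animals. Its changed genes were drawn only from those above a minimum expected count in the smallest sum. Sparse genes such as PLS1 and MAP3K7CL lie below that minimum, so their recovery was not measured. Alternatives were DESeq2 1.42.0 (test and size factors), no block, no gene filter, other nucleus filters, depth matching, thinning to 500 UMIs, at least 3 markers, and, chosen after seeing the data, each marker left out of the rule and the deepest member of each library left out. No doublet caller was run, and doublets were not removed. Clusters came from scanpy 1.11.5 with the 12 rule genes left out of the variable genes. Kept nuclei held 105481 to 4009437 UMIs per library. Intervals for shares are Clopper-Pearson, those for levels Poisson, and those for ratios exact binomial.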

Additional observations from a re-analysis of the deposited data

How the results depend on the processing

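The calls moved with the settings, and the cause was not tested. Without the replicate block on the library, 0 genes were called in either direction in both comparisons. Against all other kept nuclei, 1 gene was called higher and 1 lower; higher counts became 0 with at least 3 markers or without UCHL1, NES or ACTC1 in the rule, 2 with DESeq2 or thinning to 500 UMIs, 4 without the top 5% of nuclei by UMIs, without the deepest members or without MYH15, 6 without MLLT11, and 11 with depth-matched nuclei. Lower counts became 0 with DESeq2, its size factors, at least 3 markers or without NCAM1, NES or ACTC1, 2 with thinning, depth matching or without MYH15, 5 without MLLT11, 9 with no gene filter, 11 with at least 500 genes, and 19 without the top 5%.

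Against other fibre nuclei, 1 gene was called higher and 0 lower; higher counts became 0 under 10% mitochondrial UMIs, with at least 3 markers or without NCAM1, 2 without MYH15, 5 without NES, 6 with depth matching, 7 with no gene filter, 10 without the top 5% or ACTC1, 12 with at least 500 genes, 13 with thinning, 14 without MLLT11, 20 without the deepest members, and 26 without UCHL1. Lower counts became 2 with thinning, without the deepest members or without UCHL1, 5 with at least 500 genes and 21 with no gene filter. The share of members was 0.341% and 0.946% with at least 3 markers in animals 1 and 2, and 7.86% with at least 500 genes in animal 2.

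Of 406 gene values under other fits, 294 kept direction and side of the threshold, 21 were weaker, 80 stronger and 11 reversed, all 11 in uncalled genes. HSPB1 reversed to -0.54 with at least 3 markers and without NES, and to -0.011 with thinning. ANKRD1 reversed to -0.21 with no gene filter, -0.49 with at least 3 markers, -0.25 without the top 5%, -0.11 without the deepest members, -0.43 without NES and -0.16 without MLLT11. FLNC reversed to -0.43 with at least 3 markers and -0.36 without NES.

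The 12 members in animal 1 left many genes of regeneration, denervation and the nerve contact at 0 UMIs. Genes that did not pass the gene filter were not tested, while some with 0 UMIs there, such as ITGB1 and SPP1, were. Leaving out a whole library leaves 1 animal and no test.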

Other observations

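Members did not gather in 1 cluster when all subcutaneous nuclei were clustered without the 12 rule genes as variable genes. They lay in 12 of 13 clusters, and the cluster with most of them held 58 members, or 31.4%, which were 4.67% of that cluster. That cluster was led by ACTC1, HSPB8, SHISA2, FBP2 and PFKM and had 2 nuclei of animal 1 and 1241 of animal 2. UCHL1 and CRYAB were also among its leading genes, so these genes were not particular to the members. A cluster led by DHRS7C and PPP1R14C held 20.5% of the members, a cluster led by ASB14 and TP63 among others 15.7%, and a cluster led by the slow fibre genes TNNI1 and MYH7 14.6%. No member lay in the cluster led by PLIN1. The cluster led by IGFBP3 and GRP held 2 members, both of animal 1, and the cluster led by genes that include PDGFRA and the cluster led by genes that include MYH11 held 1 each.

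In the intramuscular libraries 2 of 1777 kept nuclei of animal 1 met the member rule (0.113%, exact 95% interval 0.0136 to 0.406). In animal 2 it was 0 of 63, with an exact upper limit of 5.69%. Only 2 other kept nuclei of the intramuscular library of animal 1 met the fibre rule, and 0 did in that of animal 2, so these libraries held almost no fibre nuclei under their labels. A difference between depots was not tested.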
